A study of Mus musculus with 8 samples.

Results

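The genes described here are 10 genes of antioxidant defence: Nfe2l2, Keap1, Hmox1, Nqo1, Sod1, Sod2, Cat, Gpx1, Gpx4 and Txn1. They were found by symbol among the 13996 genes of the deposited expression values, and 10 of 10 were present. RNA had been sequenced from brain cortexes of male C57BL/6 mice, for which the labels name no transgene, deletion or drug. From 8 weeks of age, 4 mice received a conventional diet (normal mice) and 4 mice received a diet enriched with fat to 60% by weight (high fat diet fed mice). Feeding lasted 8 weeks in each group, and the cortexes were taken at 16 weeks of age, with 1 rRNA-depleted library per mouse. Levels are given in FPKM, a count of fragments scaled to transcript length and to library size, so they can be set side by side between genes.

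Nfe2l2 encodes Nrf2, a transcription factor that binds the antioxidant response element together with a small Maf protein. Keap1 holds Nrf2 in the cytoplasm and hands it to the Cul3 and Rbx1 ubiquitin ligase for degradation. Oxidants and electrophiles modify Keap1 and allow Nrf2 to accumulate. Nrf2 is therefore controlled largely at the protein level, and the mRNAs of its targets, such as Nqo1 and Hmox1, are commonly read as a sign of its activity. The other genes encode the enzymes that dispose of superoxide (Sod1, Sod2), of peroxides (Cat, Gpx1, Gpx4) and of oxidized protein thiols (Txn1). In brain, Nrf2 targets are known mostly from astrocytes.

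The antioxidant response element is the sequence through which Nrf2 acts, so the matches to its core are shown first. The core TGACNNNGC was searched on both strands in the RefSeq promoter windows of GRCm38.p6, which run from 250 bases before to 50 bases after the transcription start. A window was found for 9 of the 10 genes. The core was present in 2 of these 9, against 14.0% of all 27025 genes with a window. In the list of other Nrf2 targets used below, 10 of 20 genes with a window held it. The matches in Nfe2l2 and Sod1 are printed 5′ to 3′ on the strand that carries the core, with the core in capitals and 10 bases on each side. Those of 4 of these 10 targets, whose RNA values are given below, follow as examples. All 4 have negative RNA estimates. Pgd also held the core and is not printed, and it was the 1 target with the core that rose.
Nfe2l2 (chr2:75704885-75704913, minus strand): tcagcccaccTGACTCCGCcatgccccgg
Sod1 (chr16:90220696-90220724, minus strand): ggcctgagtcTGACCACGCccaccttggc
Prdx1 (chr4:116685456-116685484, minus strand): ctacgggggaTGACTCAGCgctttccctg
G6pdx (chrX:74428919-74428947, plus strand): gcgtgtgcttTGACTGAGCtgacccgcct
Gclm (chr3:122245413-122245441, minus strand): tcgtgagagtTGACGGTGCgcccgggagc
Txnrd1 (chr10:82859104-82859132, minus strand): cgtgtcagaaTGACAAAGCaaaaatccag

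The core began 240 bases before the start in Nfe2l2 and 56 bases before it in Sod1, on the opposite strand of the latter gene. In the windows of Keap1, Nqo1, Sod2, Cat, Gpx1, Gpx4 and Txn1 these letters were not found. A match is a description of the letters and not of binding, and more distant elements lie outside the window.

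The tissue label was compared with marker genes before the diets were compared. All 11 markers of cortical projection neurons were present, with summed levels of 315.4 to 464.6 FPKM on the normal diet and 509.0 to 600.3 on the high fat diet. Of these, 7 rose and 1 fell. Markers counted here as rising or falling passed an adjusted p of 0.05 in the limma fit described below. Over all genes 33.1% passed, with 17.7% higher and 15.3% lower on the high fat diet. Markers of other tissue were also present and mostly higher in normal mice. The 11 striatal markers summed to 254.3 to 469.0 against 86.4 to 95.1, and 11 of them fell. The 12 oligodendrocyte and myelin markers summed to 2166.6 to 3571.0 against 1496.9 to 2078.3, and 12 of them fell. The 5 blood markers summed to 239.2 to 479.7 against 199.1 to 247.4, and 5 fell. Cerebellar markers reached 274.7 in a normal mouse and lay between 12.7 and 16.2 in the other group, and Pcp2 and Barhl2 of that list were not in the values used. Microglial markers overlapped between the diets, and 0 of 11 passed limma's adjusted threshold. Astrocyte markers summed to 1297.2 to 1495.0 against 1276.7 to 1356.1, and 3 of 11 rose and 3 fell. In such bulk tissue, fewer cells of a type, less RNA per cell and a different share of other tissue in the sample cannot be told apart.

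**Figure D1:**
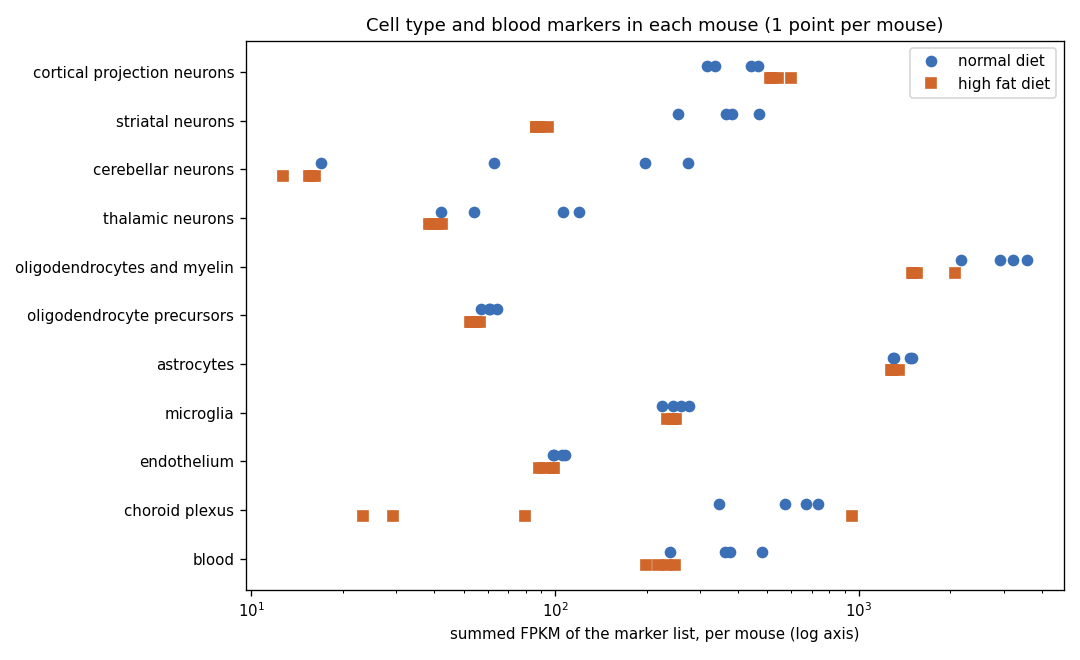
Summed FPKM of each marker list (rows) in each mouse (points, log axis), for normal mice (circles) and high fat diet fed mice (squares). Striatal markers lie between 254.3 and 469.0 on the normal diet, all above the 86.4 to 95.1 of the other diet, while microglial markers overlap.

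To ask whether the high fat diet moved the antioxidant genes, limma was run on log2(FPKM + 0.1) over 13982 genes. Of the 10 genes, 3 passed an adjusted p of 0.05. Keap1 rose, Cat and Gpx1 fell, and 7 did not pass. Over all genes tested 33.1% passed, with 17.7% higher and 15.3% lower on the high fat diet, so the share of 3 in 10 lay near that background. The estimates were negative for 8 of the 10 genes, against 6914 of 13982 over all genes tested. The median of the 10 was -0.11 on the log2 scale, against 0.00 for all genes tested. Among the negative estimates, those of Nfe2l2, Hmox1, Nqo1, Sod1 and Gpx4 had 95% intervals that included 0. Changes were small. None of the 10 passed that threshold in limma with a change over 1.5-fold in either direction, where 7.13% of all genes did, and at an unadjusted p of 0.05 that count was also 0. The 4 values of each diet did not overlap for 3 genes (Keap1, Sod2 and Cat), against 31.9% of all genes.

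**Figure D2:**
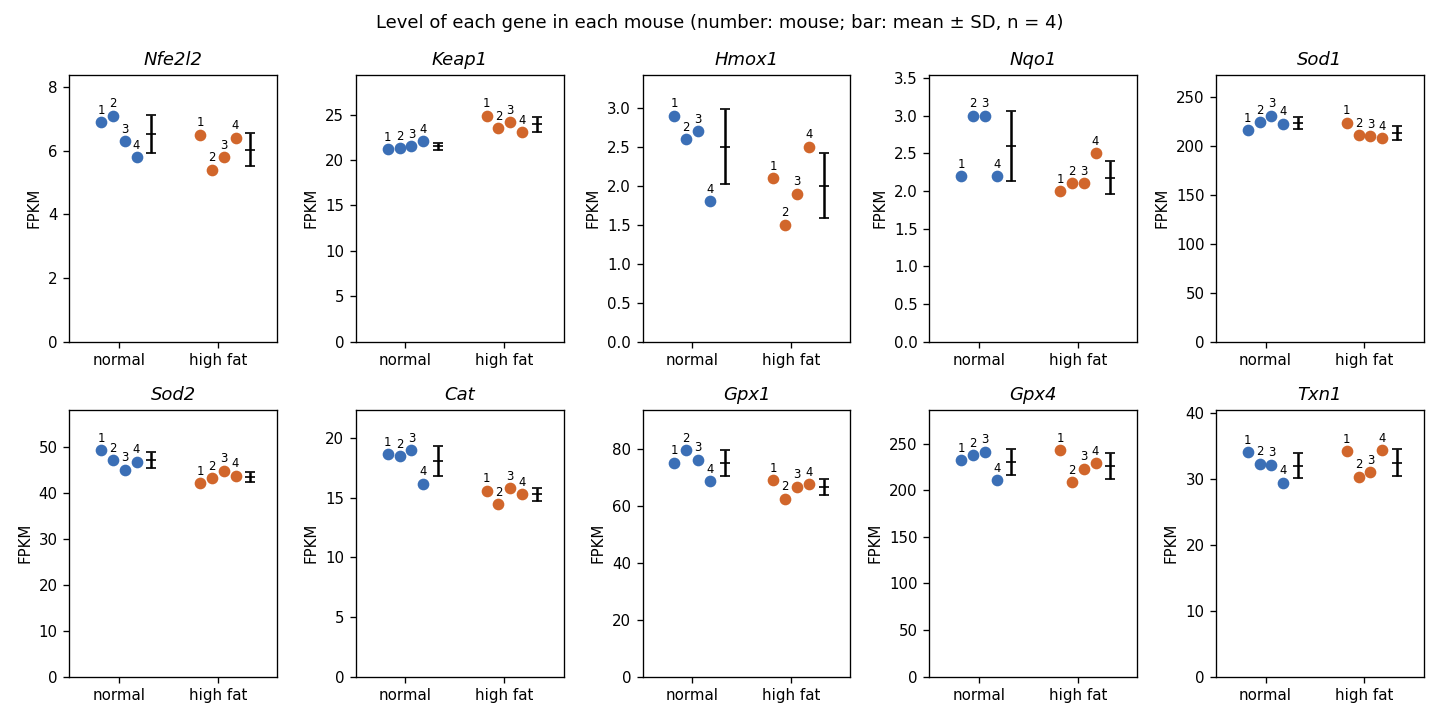
FPKM (vertical axes, from 0) of each of the 10 genes in each mouse (numbered points), with the mean ± SD of the 4 mice of a diet as a bar. Keap1 lies higher on the high fat diet (23.1 to 24.9 against 21.2 to 22.1) and Cat lower (14.5 to 15.8 against 16.2 to 19.0).

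Nfe2l2 (chromosome 2 of GRCm38, 75675513 to 75704641, minus strand) measured 6.9, 7.1, 6.3 and 5.8 FPKM in the 4 normal mice. It measured 6.5, 5.4, 5.8 and 6.4 in the 4 high fat diet fed mice. The groups overlapped broadly, with normal mouse 4 and high fat diet fed mouse 2 lowest in their groups. Its log2 change was -0.11, with a 95% interval from -0.31 to 0.08 (adjusted p = 0.347), so the direction was not resolved.

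Keap1 (chromosome 9, 21229730 to 21239361, minus strand), the repressor of Nrf2, rose. It measured 21.2, 21.3, 21.5 and 22.1 FPKM in normal mice and 24.9, 23.5, 24.2 and 23.1 in high fat diet fed mice. Every high fat diet fed mouse lay above every normal mouse. The mean moved from 21.5 ± 0.403 to 23.9 ± 0.793 (SD, n = 4 each), an increase of 11.1% (log2 change 0.15, interval 0.06 to 0.25, adjusted p = 0.0232 by limma). The spread between mice of a diet was 0.0385 on the log2 scale, below that of nearly all genes (percentile 2.28). The direction held with each mouse left out, at 0.13 to 0.17, but 4 of 8 such fits lost the call. Those were the fits without normal mouse 1 (adjusted p = 0.0502), without normal mouse 2 (0.0588), without mouse 1 of the high fat diet (0.067) and without its mouse 3 (0.0501). With the cerebellar, blood or oligodendrocyte marker level as a covariate the estimate for Keap1 was 0.15, 0.11 and 0.13, and none passed (adjusted p = 0.292, 0.484 and 0.554). These fits called few genes of any kind (3.14%, 0.451% and 0.0429% of all genes). An antisense gene, Gm16754, overlaps Keap1 in the annotation and was not in the values used. The library kit keeps the strand, but the sources used here do not say whether the counting did.

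**Figure D3:**
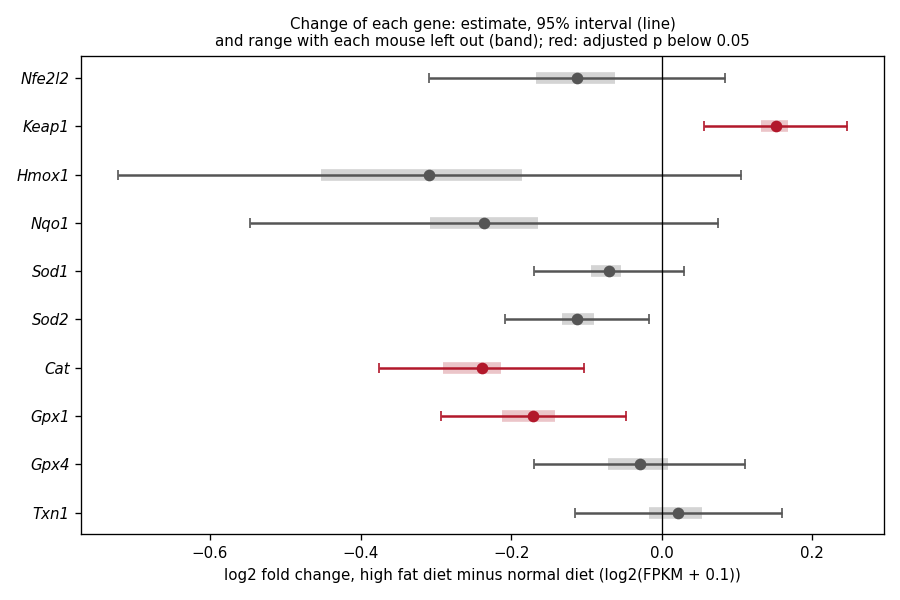
Log2 change of each gene (horizontal axis, high fat diet minus normal diet) with its 95% interval (line) and the range of estimates when each mouse was left out (band). Keap1, at 0.15, lies above 0 and Cat and Gpx1, at -0.24 and -0.17, lie below it.

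The partners of Nrf2 and Keap1 moved in both directions. Of 21 listed regulators, 18 were tested, 4 rose and 2 fell, and 12 did not pass, a share of 33.3% past the threshold against 33.1% of all genes. The ligase subunits were the genes that fell. Cul3, the scaffold that Keap1 binds, fell, with 48.9 to 50.9 FPKM in the normal mice and 40.6 to 44.6 on the high fat diet (log2 change -0.20, adjusted p = 0.00787). Rbx1, the RING subunit, fell from 63.1 ± 2.13 to 57.1 ± 2.08 (adjusted p = 0.0316). The acetyltransferase coactivators Crebbp and Ep300 rose, from 13.1 ± 0.943 to 20.1 ± 1.39 and from 6.9 ± 0.337 to 9.62 ± 0.562, and both passed (adjusted p = 0.000729 and 0.00119). Crebbp, at 1.53-fold, was the 1 regulator past 1.5-fold. Gsk3b, a kinase that marks Nrf2 for degradation apart from Keap1, rose from 36.9 ± 2.9 to 45.0 ± 3.39 (adjusted p = 0.0139). Mafg, a small Maf partner, rose by 0.18 on the log2 scale with overlapping groups (adjusted p = 0.0291). Rbx1 and Mafg were singled out after their values were seen. The repressor Bach1 measured 3.6 ± 0.163 and 3.55 ± 0.129, and Sqstm1, which sequesters Keap1, 188 ± 3.69 and 182 ± 6.96, neither past the threshold.

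Hmox1 and Nqo1, the inducible enzymes most often used to read Nrf2, were the least abundant of the 10 genes. Hmox1 (chromosome 8, 75093621 to 75100589, plus strand), which degrades heme, measured 2.9, 2.6, 2.7 and 1.8 FPKM in normal mice and 2.1, 1.5, 1.9 and 2.5 in high fat diet fed mice. The groups overlapped. The log2 change was -0.31 with a wide interval of -0.72 to 0.11 (adjusted p = 0.223). Values are rounded to 0.1 FPKM, which is coarse at this level, and the spread within a diet was 0.293 on the log2 scale, against a median of 0.121 over all genes. Without normal mouse 4 the estimate was -0.45 (adjusted p = 0.0642), and leaving out mouse 2 of the high fat diet gave -0.19. High fat diet fed mouse 4, with the highest Hmox1 of its diet, was also the mouse whose choroid plexus markers summed to 952.0 FPKM, against 23.3 to 79.7 in the other mice of that diet. In normal mice 1 to 4 these markers summed to 672.5, 573.3, 735.2 and 347.0. Normal mouse 4 was thus lowest of its diet for both these markers and Hmox1. The part of choroid plexus RNA in Hmox1 was not tested.

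Nqo1 (chromosome 8, 107388225 to 107403206, minus strand), a quinone reductase, measured 2.2, 3.0, 3.0 and 2.2 FPKM in normal mice and 2.0, 2.1, 2.1 and 2.5 in high fat diet fed mice. Normal mice 2 and 3 stood above the other 6 mice. These were also the mice with the highest cerebellar marker sums, 197.5 and 274.7, against 62.9 in normal mouse 4 and less in normal mouse 1. The log2 change was -0.24 (interval -0.55 to 0.07, adjusted p = 0.215). With the cerebellar marker level as a covariate it turned to 0.19, also short of the threshold (adjusted p = 0.59). With the blood and oligodendrocyte levels it was 0.0143 and 0.0598 (adjusted p = 0.982 and 0.948). The part of any of these tissues in Nqo1 was not tested.

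Of 24 other listed targets of Nrf2, 23 were tested, 1 rose, 5 fell and 17 did not pass. The share past the threshold was 26.1% in either direction, against 33.1% of all genes (17.7% higher and 15.3% lower). The 5 that fell were Taldo1, Idh1, Prdx1, G6pdx and Ephx1. Taldo1, of the pentose phosphate pathway, fell from 69.0 ± 3.57 to 54.5 ± 1.12 FPKM (adjusted p = 0.00123), and Idh1, the cytosolic isocitrate dehydrogenase, from 20.2 ± 0.332 to 15.7 ± 1.39 (adjusted p = 0.00326). G6pdx, the entry enzyme of the pentose phosphate pathway, fell from 13.2 ± 1.99 to 9.43 ± 0.45 (log2 change -0.47, adjusted p = 0.0071). Pgd, the next dehydrogenase of the same pathway, went the other way, from 6.45 ± 0.619 to 8.32 ± 0.732 (log2 change 0.36, adjusted p = 0.0128, overlapping groups). Ephx1, microsomal epoxide hydrolase, fell by 0.44 on the log2 scale (adjusted p = 0.00712). Pgd and Ephx1 were named after their values were seen.

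Classical Nrf2 targets were among those that did not pass. The subunits of glutamate cysteine ligase, the first step of glutathione synthesis, measured 16.8 to 17.2 and 16.7 to 17.8 FPKM for Gclc (log2 interval -0.07 to 0.12) and 17.8 ± 1.52 and 16.8 ± 1.09 for Gclm (interval -0.24 to 0.07), with the normal diet first. Txnrd1, cytosolic thioredoxin reductase, measured 20.2 ± 1.95 and 18.2 ± 0.222 with an interval from -0.29 to 0.00, and Srxn1, sulfiredoxin, from -0.21 to 0.01. Slc7a11, the cystine importer, was just short of the threshold on the positive side, at 9.15 ± 0.173 and 11.3 ± 1.72 (adjusted p = 0.0505). Of the targets with the antioxidant response element core in their window, 10 were tested, with 1 higher, 2 lower and a median log2 change of -0.11. Of those without it, 9 were tested, with 0 higher, 3 lower and a median of -0.06. The difference between these groups of targets was not tested.

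Sod1 (chromosome 16, 90220754 to 90226329, plus strand), the cytosolic copper and zinc superoxide dismutase, was abundant. It measured 216.2, 224.9, 231.4 and 223.2 FPKM in normal mice and 224.1, 211.1, 210.1 and 208.3 in high fat diet fed mice. High fat diet fed mouse 1 fell within the normal range and the other 3 below it. The log2 change was -0.07 (interval -0.17 to 0.03, adjusted p = 0.252). Scaf4, on the opposite strand, overlaps Sod1 over 650 bp and rose from 3.62 to 4.88 FPKM, a level far below that of Sod1.

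Sod2 (chromosome 17, 13006846 to 13040063, plus strand), the mitochondrial manganese enzyme, measured 49.3, 47.2, 45.1 and 46.8 FPKM in normal mice and 42.2, 43.3, 44.9 and 43.8 in high fat diet fed mice. The groups did not overlap, but by only the distance between 45.1 and 44.9. The mean was 47.1 ± 1.73 and 43.6 ± 1.12 (SD). The log2 change of -0.11 (interval -0.21 to -0.02) missed limma's threshold (adjusted p = 0.0681). Quantile normalization of the mice brought it past, at -0.12 (adjusted p = 0.0346).

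Cat (chromosome 2, 103453849 to 103485160, minus strand), the peroxisomal catalase, fell, with the smallest adjusted p of the 10 genes. It measured 18.7, 18.5, 19.0 and 16.2 FPKM in normal mice and 15.6, 14.5, 15.8 and 15.3 in high fat diet fed mice. Each high fat diet fed mouse lay below each normal mouse, and normal mouse 4 was close to them. The mean decreased from 18.1 ± 1.28 to 15.3 ± 0.572 (SD, n = 4 each), a log2 change of -0.24 (interval -0.38 to -0.10, adjusted p = 0.0157 by limma). The call was kept in 8 of 8 fits with a mouse left out, at -0.29 to -0.21, with adjusted p up to 0.049. Normal mouse 4 was also lowest of its diet for oligodendrocyte markers (2166.6) and for blood markers (239.2), both of which were higher in normal mice. With the oligodendrocyte level as a covariate the estimate for Cat was -0.015, with the blood level -0.10, and with the cerebellar level -0.21, and none passed (adjusted p = 0.965, 0.613 and 0.292). Of all genes, 0.0429%, 0.451% and 3.14% passed in these fits. Oligodendrocyte sums did not overlap between the diets, so that covariate and the diet cannot be told apart in 8 mice.

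Gpx1 (chromosome 9, 108338903 to 108340343, plus strand), the selenium-dependent glutathione peroxidase of cytosol and mitochondria, also fell. It measured 75.1, 79.4, 76.1 and 68.5 FPKM in normal mice and 69.0, 62.4, 66.6 and 67.5 in high fat diet fed mice. High fat diet fed mouse 1 lay above normal mouse 4 and the other 3 lay below every normal mouse. The log2 change was -0.17 (interval -0.29 to -0.05, adjusted p = 0.0383). This call was weak, since 1 of the 8 fits with a mouse left out kept it (without normal mouse 4, adjusted p = 0.013). The other 7 gave adjusted p of 0.0519 to 0.105. Without a variance trend the adjusted p was 0.0658 and after quantile normalization it was 0.0639. With the oligodendrocyte level as a covariate the estimate for Gpx1 was 0.01, with the blood level -0.02 and with the cerebellar level -0.11, and none passed (adjusted p = 0.976, 0.902 and 0.516). The same fits called 0.0429%, 0.451% and 3.14% of all genes.

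Gpx4 (chromosome 10, 80047166 to 80056439, plus strand), which reduces lipid peroxides in membranes and guards against ferroptosis, measured 231.9, 237.5, 241.3 and 210.5 FPKM in normal mice. In high fat diet fed mice it measured 242.7, 208.2, 223.1 and 228.8. The ranges nearly coincided, and the highest and the lowest value both came from the high fat diet. The log2 change was -0.03, with an interval of -0.17 to 0.11 (adjusted p = 0.743). That leaves room for a decrease of nearly the size seen for Gpx1, but not for an increase as large as that of Keap1. The annotation lists pseudogenes named for Gpx4 and Txn1 (Gpx4-ps2 and Txn-ps1), with which reads could be shared.

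Among other superoxide and peroxide enzymes, 11 of 14 listed were tested, 0 rose, 4 fell and 7 did not pass (36.4% past the threshold, against 33.1% of all genes in either direction and 15.3% that fell). The peroxiredoxins, thiol peroxidases recharged by thioredoxin, made up 3 of the 4. Prdx5 fell from 140 ± 7.58 to 110 ± 4.95 FPKM (log2 change -0.34, adjusted p = 0.00198), Prdx1 from 73.0 ± 2.99 to 59.7 ± 3.83 (-0.29, adjusted p = 0.00431) and the mitochondrial Prdx3 from 31.2 ± 0.787 to 28.0 ± 1.04 (-0.15, adjusted p = 0.0234). Prdx1 and Gclm both carry the core in the windows printed above, and Gclm did not pass. The fourth was Gpx8, of the endoplasmic reticulum, at 5.43 ± 1.45 and 3.33 ± 0.67 (log2 change -0.68, adjusted p = 0.0238). Prdx2 was just short of the threshold (137 ± 1.28 and 123 ± 9.27, adjusted p = 0.0507), and Prdx6 did not pass (91.5 ± 6.81 and 97.3 ± 2.35, adjusted p = 0.225).

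Txn1 (chromosome 4, 57943373 to 57956411, minus strand), the cytosolic thioredoxin, measured 34.0, 32.3, 32.1 and 29.4 FPKM in normal mice and 34.2, 30.3, 31.0 and 34.3 in high fat diet fed mice. The groups overlapped, and the log2 change was 0.02 (interval -0.12 to 0.16, adjusted p = 0.805). The sign turned negative with normal mouse 4 left out, and with mouse 1 or mouse 4 of the high fat diet left out. In the thioredoxin and glutaredoxin systems around it, 23 of 23 listed genes were tested, 2 rose and 7 fell. That is a share of 39.1%, against 33.1% of all genes (17.7% higher and 15.3% lower). The decreases included the transmembrane oxidoreductases Tmx1 (17.1 ± 1.39 to 12.4 ± 0.668, adjusted p = 0.00164) and Tmx3 (21.0 ± 1.01 to 16.1 ± 1.27, adjusted p = 0.00291) of the endoplasmic reticulum and the iron-sulfur glutaredoxin Glrx3 (41.2 ± 1.66 to 33.0 ± 1.16, adjusted p = 0.00147). Txnrd3 fell to 0.636 of its level, from a low value (1.95 ± 0.311 to 1.2 ± 0.141, adjusted p = 0.0096). Those that rose were the sestrin Sesn3 (25.7 ± 1.06 to 31.4 ± 1.47, adjusted p = 0.00329) and Txnip, the inhibitor that binds thioredoxin (8.9 ± 0.876 to 11.0 ± 0.789, adjusted p = 0.0205). Txnip was named after its value was seen.

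Glutathione enzymes were mixed. Of 33 listed, 30 were tested, 3 rose, 7 fell and 20 did not pass. The share in either direction was 33.3%, close to the 33.1% of all genes (17.7% higher and 15.3% lower). The theta class transferase Gstt1 rose 1.67-fold, from 6.23 ± 0.591 to 10.4 ± 0.419 (adjusted p = 0.000571), and Gstz1 rose from 16.9 ± 1.38 to 23.1 ± 2.12 (adjusted p = 0.00342). Microsomal Mgst1 fell to 0.641 of its level, from 9.65 ± 1.03 to 6.23 ± 1.31 (adjusted p = 0.00827). Esd, which releases glutathione in formaldehyde disposal, fell from 45.8 ± 1.29 to 32.1 ± 1.24 (log2 change -0.51, adjusted p = 0.000216), and the glyoxalase Glo1 from 44.8 ± 2.92 to 34.9 ± 1.56 (adjusted p = 0.00217). The mu class genes, whose sequences are close enough for reads to be split between copies, included Gstm5 at 128 ± 7.19 and 128 ± 5.17 FPKM. Gstm7 fell from 10.2 ± 1.42 to 8.05 ± 0.947 (adjusted p = 0.0471). Gstm1, at 107 ± 4.95 and 118 ± 5.11, was short of the threshold (adjusted p = 0.0585), and Gstm2, Gstm4 and Gstm6 did not pass. Gstm7 and Gstm1 were named after their values were seen.

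The selenium, methionine sulfoxide and ferroptosis list, to which Gpx1 and Gpx4 are related as selenoproteins, had 27 of 27 genes tested, 4 higher, 8 lower and 15 that did not pass. The share past the threshold was 44.4%, against 33.1% of all genes (17.7% higher and 15.3% lower). Sep15 (Selenof) fell from 79.3 ± 1.24 to 63.3 ± 0.577 (log2 change -0.32, adjusted p = 0.000684), and Vimp (Selenos) from 24.5 ± 1.81 to 19.2 ± 1.08 (adjusted p = 0.00399). Both reside in the endoplasmic reticulum. Sepp1 (Selenop), the secreted selenium carrier, fell from 128 ± 14.2 to 107 ± 3.41 (adjusted p = 0.0231) and was named after its value was seen. Tfrc, the transferrin receptor for iron uptake, fell from 38.3 ± 3.38 to 26.0 ± 0.806 (log2 change -0.55, adjusted p = 0.000827). Msra, a methionine sulfoxide reductase, rose from 26.0 ± 2.32 to 34.6 ± 1.34 (adjusted p = 0.00215). Of 21 listed sources of reactive oxygen, 10 were in the values used, and 20.0% passed, against the same 33.1%. They were Xdh, which rose, at 1.2 ± 0.163 and 1.75 ± 0.1 FPKM (adjusted p = 0.0169), and Rac1, which fell, at 91.5 ± 1.21 and 84.0 ± 1.44 (adjusted p = 0.0284).

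**Figure D4:**
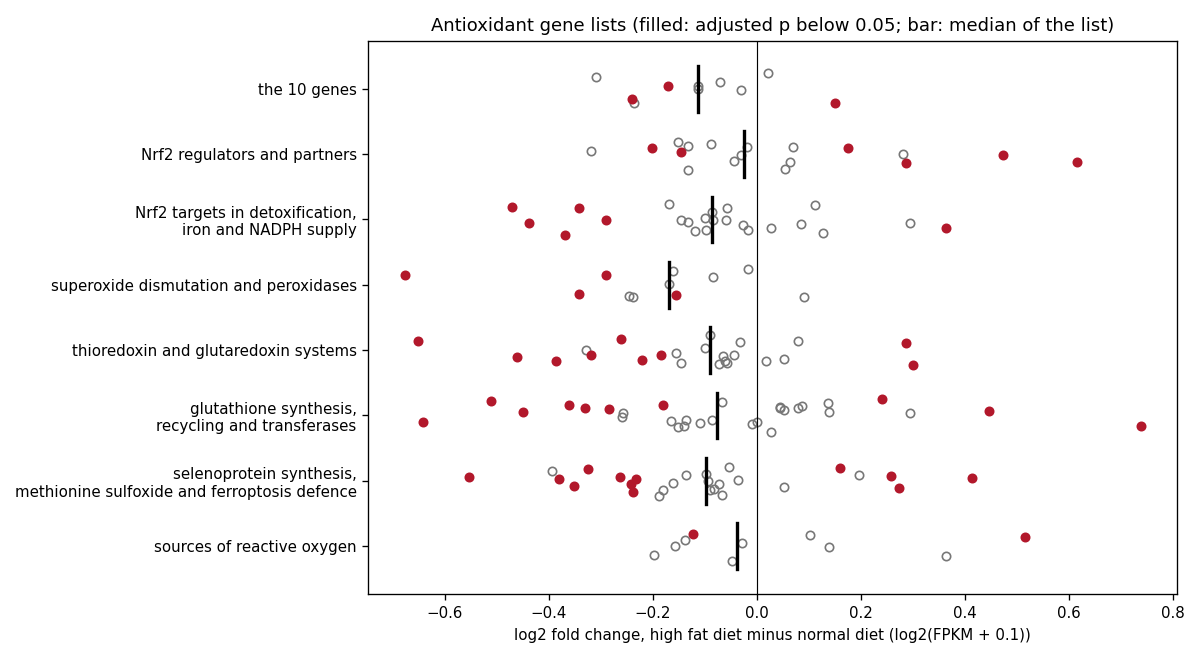
Log2 change (horizontal axis, high fat diet minus normal diet) of each tested gene of the antioxidant lists (rows), filled where the adjusted p was below 0.05, with the median of each list as a bar. The medians lie between -0.17 for superoxide and peroxide enzymes and -0.02 for Nrf2 regulators, and each list has genes on both sides of 0.

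Over the 7 lists together, with each gene counted once and the 10 genes left out, 136 of 157 genes were tested, 15 rose and 33 fell. That is 35.3% past the threshold, where all genes gave 33.1% (17.7% higher and 15.3% lower). The direction was uneven, with 96 of 136 estimates below 0, against 6914 of 13982 over all genes, and the median was -0.09. The lists were chosen with earlier results of these data known. With the cerebellar marker level as a covariate 4 list genes passed higher and 4 lower. With the blood level 0 passed higher and 2 lower, and with the oligodendrocyte level 0 passed. In the cerebellar, blood and oligodendrocyte fits 3.14%, 0.451% and 0.0429% of all genes passed. Changes over 1.5-fold in either direction were found for 5 of 136 genes, against 7.13% of all genes tested. Crebbp and Gstt1 were higher and Gpx8, Txnrd3 and Mgst1 lower.

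Gpx4 and Sod1 were the most abundant, with means over 8 mice of 228.0 and 218.7 FPKM, and their ranges overlapped in each diet, so their order was not resolved. Gpx1 (70.6), Sod2 (45.3), Txn1 (32.2), Keap1 (22.7), Cat (16.7) and Nfe2l2 (6.28) followed, with no overlap between neighbours within either diet. Nqo1 (2.39) and Hmox1 (2.25) came last and overlapped in each diet. Sod1 and Gpx4 lay above 98.3% and 98.4% of all genes tested, and Hmox1 above 14.6%.

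Several of the 10 genes were low in the same mice. Normal mouse 4 held the lowest value of its diet for 7 genes (Nfe2l2, Hmox1, Cat, Gpx1, Gpx4, Txn1 and, tied with normal mouse 1, Nqo1). High fat diet fed mouse 2 was lowest of its diet for 6 of the 10, the same genes except Nqo1. These mice also had the lowest sums of FPKM of their diets, 585154.6 and 562431.0, against 607569.4 to 639142.3 in the other 6 mice, while the median FPKM of a gene was 9.6 to 9.9 in all 8. Keap1, Sod1 and Sod2 did not follow this pattern. How often normal mouse 4 and high fat diet fed mouse 2 were lowest over all genes was not counted. The pattern can therefore not be called particular to the 10 genes. Both mice were also lowest of their diet for oligodendrocyte markers (2166.6 and 1496.9), while normal mouse 4 was highest of its diet for cortical projection neuron markers (464.6). With both mice left out, an alternative chosen after seeing the data, Cat and Gpx1 passed the threshold and Keap1 did not (log2 change 0.17, adjusted p = 0.0562). Of all genes, 23.8% passed in that fit. The part of library effects or of tissue content in these values was not tested further.

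**Figure D5:**
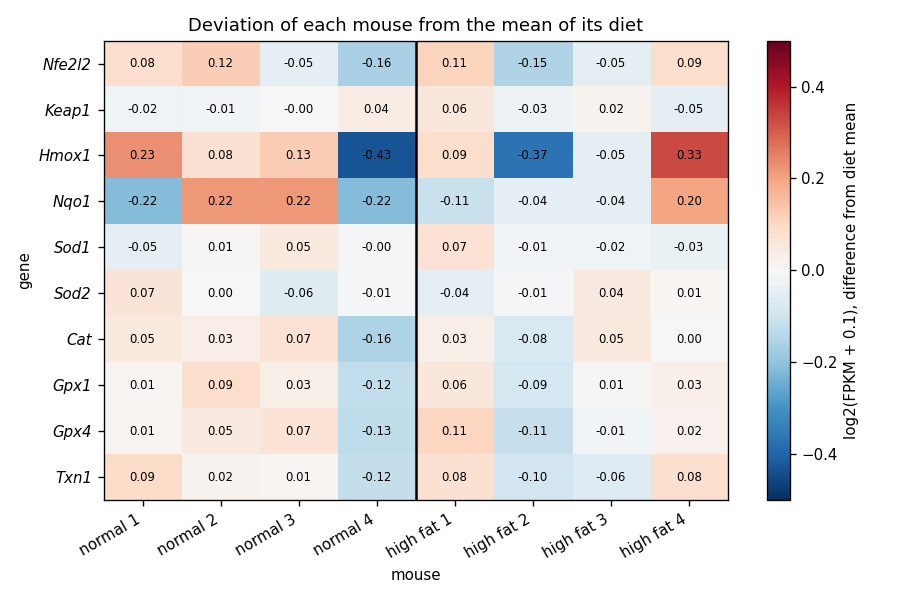
Difference of each mouse (columns) from the mean of its diet for each gene (rows), in log2(FPKM + 0.1), printed in each cell and coloured from blue (below the mean) to red (above). Hmox1 is at -0.43 in normal mouse 4 and -0.37 in high fat diet fed mouse 2, and Cat, Gpx1, Gpx4 and Txn1 are also below 0 in both.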

How the data were processed

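Per the labels and methods, the authors used FastQC and Trimmomatic on the reads, STAR for alignment to mm10, and Cuffnorm with GENCODE M17 (GRCm38.p6) for FPKM. The tools' versions are not stated there. The deposited FPKM values are rounded to 0.1 and carry no read counts, so the depth is unknown and no counting interval can be given. Sums of FPKM per mouse were 562431 to 639142.

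From these values log2(FPKM + 0.1) was fitted with limma 3.58.1 (R 4.3.3), two-sided with a variance trend. P-values were adjusted by Benjamini and Hochberg over the 13982 genes with a mean of at least 1 and no 0. Fold changes on this scale understate the change of low genes. Tables were made with Python 3.11.15 and pandas 2.3.3 and figures with matplotlib 3.10.9. Positions come from GENCODE M21 and promoters from RefSeq. List genes absent by symbol were matched by Ensembl identifier (10 matches).

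The 10 genes, the 7 pathway lists and the 11 marker lists were chosen with earlier results of these data known. Named list genes were those past the threshold with a change over 1.5-fold in either direction and the 4 with the smallest adjusted p per list. Other list genes were named after their values were seen. The 8 samples are separate mice. Alternatives covered the added constant, the filter, rescaling, the variance trend, a replicate block, marker covariates and mice left out.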

Additional observations from a re-analysis of the deposited data

How the results depend on the processing

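The count of 3 of the 10 genes was 3 with an added constant of 1 or 0.01, without a filter, with a mean FPKM of at least 5 (Hmox1 and Nqo1 then drop out), after median-ratio rescaling and after quantile normalization (Sod2 in place of Gpx1), and it was 2 without a variance trend. With a single mouse left out it ranged from 1 to 3, and it was 1 (Cat) in 4 of those fits. They left out mouse 1 or 2 of the normal diet, or mouse 1 or 3 of the high fat diet. Over all fits with a single mouse left out, 23.6% to 33.1% of all genes passed. The labels do not say whether the numbers in the titles pair the mice. Deviations of same-numbered mice correlated at -0.11 to -0.03, which cannot settle it with 4 mice per diet. With the number as a replicate block 1 of the 10 genes (Cat) and 37 of the pathway genes passed, and Keap1 and Gpx1 did not (adjusted p = 0.0761 and 0.0932 by limma). That fit called 24.2% of all genes, against 33.1% in the reported fit. With a minimum change of 1.5-fold in either direction the counts were 0 of the 10 and 5 of the 48 pathway genes, from 136 tested. Among all genes tested the share was 7.13%.

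With marker levels as covariates 0 of the 10 genes passed limma's threshold (cerebellar, blood or oligodendrocyte, of which the last pair was added after seeing the data), and at an unadjusted p of 0.05 these counts were 1, 0 and 0. For pathway genes they were 8, 2 and 0, with 33, 31 and 27 unadjusted. The share of all genes past the threshold was then 3.14%, 0.451% and 0.0429%, so these fits called few genes of any kind. Estimates that turned sign were, in the same order, 0.19, 0.0143 and 0.0598 for Nqo1 and 0.0261, 0.11 and 0.13 for Gpx4, and with the blood and oligodendrocyte levels 0.11 and 0.0702 for Nfe2l2 and 0.13 and 0.15 for Hmox1. Gpx1 turned to 0.0096 with the oligodendrocyte level and Txn1 to -0.0193 with the cerebellar level. With each mouse left out Gpx4 ranged from -0.0718 to 0.0088 and Txn1 from -0.0172 to 0.0541. Of these genes, Gpx1 had passed in the reported fit and the others had not. The cause was not tested. The pathway count stayed between 34 and 49 under the other alternatives. Depth is unknown, and rounding to 0.1 limits Hmox1 and Nqo1.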
